A study of Mus musculus with 12 samples.

Results

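The 83 genes described here encode proteins of the cytosolic ribosome. They were taken by symbol alone, out of the 55401 genes in the files. The symbols were Rpl or Rps followed by a number, with or without a closing a, l or x, together with Rplp0, Rplp1, Rplp2 and Rpsa. Of these genes 51 belong to the large subunit and 32 to the small subunit. The rule on symbols used no measured value, although this family was picked for study with earlier results of these data known, and rows named as pseudogenes were left out.

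RNA was sequenced in bulk from migratory dendritic cells, the cells that carry antigen from a tissue to its lymph nodes, taken from the liver, the pancreas and the duodenum of B6 mice of 6 to 8 weeks. No genotype other than the strain, no transgene and no treatment is named for these libraries. Each tissue gave 4 libraries, and each library came from 2 pooled mice. Sorting took live CD45+ cells that lacked lineage markers and CD11b and carried CD11c, CD103 and high levels of MHC class II, which is the surface profile of conventional type 1 dendritic cells.

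The genes of the markers that kept cells in the sort, and the cells' defining genes, were detected in all tissues. Xcr1, a chemokine receptor of type 1 dendritic cells, averaged 611 ± 77.5 CPM (counts scaled to library size) in liver, 406 ± 49.5 CPM in pancreas and 535 ± 149 CPM in duodenum (SD, n = 4 each). Itgam, the gene of CD11b, averaged 1.70 ± 1.15 CPM in liver, 2.67 ± 0.951 CPM in pancreas and 2.46 ± 0.650 CPM in duodenum. Genes of other cells were not at 0. The summed level of 17 plasma cell genes ran from 323 to 853 CPM in liver, from 365 to 1210 CPM in pancreas and from 8859 to 13142 CPM in duodenum. The summed level of 28 acinar cell genes ran from 1184 to 6069 CPM in pancreas, against 8.25 to 12.05 CPM in liver and 15.0 to 27.1 CPM in duodenum. Libraries held 220.9 to 356.1 M (mega) estimated counts, and the deepest was duodenum 2. Its scaling factor was 1.09, against 0.887 to 0.924 in the other duodenum libraries, and that of pancreas 1 was 1.13, against 0.895 to 1.02 in the other pancreas libraries. Duodenum 2 also had the lowest summed level of 16 genes of sorting markers and cell identity. It was 37170 CPM, against 53477 to 58680 CPM in the other duodenum libraries. In bulk RNA, fewer cells of a type and less RNA per cell cannot be told apart.

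A ribosome joins a small subunit, which reads the messenger RNA, to a large subunit, which forms the peptide bond, and each holds ribosomal RNA and a fixed set of proteins. Most of these proteins are present once in each ribosome, so their genes are usually expressed together and at high levels. Their messenger RNAs start with a run of pyrimidines, the 5′ terminal oligopyrimidine (TOP) motif, through which mTOR signalling controls their translation. In dendritic cells, activation is known to change both protein synthesis and the expression of the genes that support it. Mammalian genomes hold many processed copies of ribosomal protein genes, and a few paralogs that are expressed in particular tissues.

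Start windows of a few members are shown here, and coding sequences of a few further below. The 5 start windows run from 20 bases before to 20 bases after the annotated start, in RefSeq's sequence of GRCm38.p6. They are of Rpl14 at chr9:120571497-120571536 on the plus strand, Rps27 at chr3:90213629-90213668 on the minus strand, Rpl5 at chr5:107900508-107900547 on the plus strand, Rps28 at chr17:33824543-33824582 on the minus strand and Rpl41 at chr10:128549149-128549188 on the minus strand. Capitals mark the longest run of C and T in each window, or the first of equal length. It has 14 bases in Rpl14, 9 in Rps27 and Rpl5, 4 in Rps28 and 3 in Rpl41. Relative to the annotated start it begins at -8 in Rpl14, -2 in Rps27, -20 in Rpl5 and Rps28, and -3 in Rpl41. In Rpl5, Rps28 and Rpl41 it ends before that start, outside the annotated transcript. Whether these runs act as TOP motifs was not tested. The windows of Rps19, Rpl36a and Rpl3l, which are not shown, have runs of 4, 5 and 5 bases.
Rpl14: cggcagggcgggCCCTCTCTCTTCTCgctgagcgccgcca
Rps27: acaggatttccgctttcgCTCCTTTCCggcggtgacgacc
Rpl5: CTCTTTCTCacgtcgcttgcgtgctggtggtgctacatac
Rps28: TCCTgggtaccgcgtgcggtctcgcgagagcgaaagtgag
Rpl41: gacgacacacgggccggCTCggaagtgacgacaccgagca

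Of the 83 members, 61 had an entry in RefSeq's promoter sequences, which were compared with all 27025 genes listed there. A run of at least 8 C or T within 50 bases of the annotated start was found in 52 of the 61 members (85.2%), against 39.3% of all genes. The letters CTTCCG, on either strand from 250 bases before to 50 bases after the start, were found in 41 members (67.2%), against 18.8% of all genes. These are matches of letters and do not show that a factor binds there.

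Most members were among the most abundant transcripts of these cells. Levels per gene length were read in TPM, which scales for gene length and library size. By mean TPM over the 12 libraries, 23 of the 50 highest genes, 50 of the highest 100 and 73 of the highest 200 were members. At least 1000 TPM was reached by 68 members and at least 100 TPM by 75. Among those 75, the 44 large subunit genes had a median of 1765 TPM, and the lowest of them was Rpl27a with 544 TPM. The 31 small subunit genes ran from 370 TPM in Rps27l to 6065 TPM in Rps29, with a median of 2656 TPM. Rps29 averaged 6065 ± 1042 TPM (SD, n = 12), and Rps27, a zinc-binding protein of the small subunit, averaged 5289 ± 836 TPM. The means of Rps29 and Rps27 differed by less than their SD. In duodenum 2 Rps29 reached 8295 TPM, above every other member of that library. Spearman's rho of member TPM between pairs of libraries ran from 0.895 to 0.997 over the 75 members, so the order of levels was similar in every library.

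**Figure D1:**
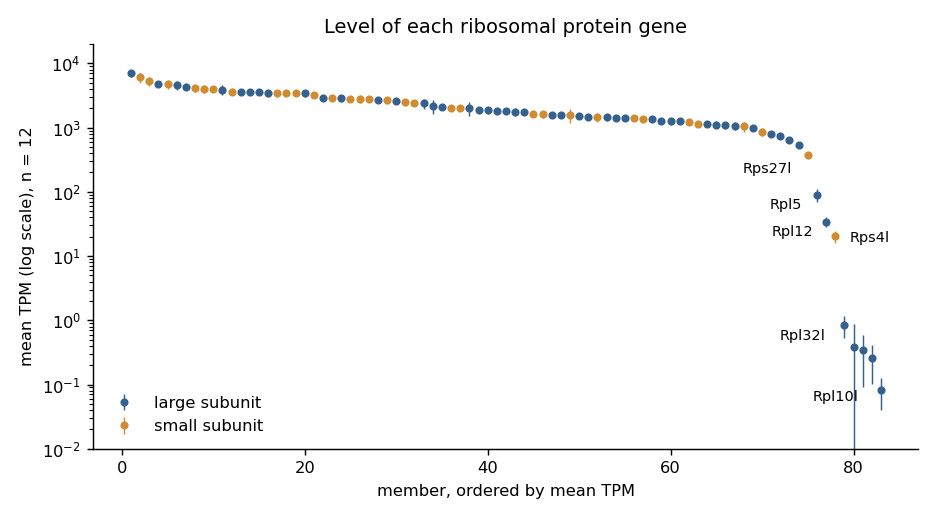
Mean level of each of the 83 ribosomal protein genes over 12 libraries, on a log scale of TPM, ordered from high to low, with the SD as bars (a lower bar that passes 0 ends at the axis). The 75 members of at least 100 TPM form a plateau that starts at 370 TPM, and 8 lie below it.

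The 8 members under 100 TPM were of 2 kinds. Rpl5 (90.4 ± 21.2 TPM, SD, n = 12) and Rpl12 (34.1 ± 6.25 TPM) are single-copy proteins of every large subunit, yet were listed far below their partners. The others are paralogs. Rps4l, a paralog of Rps4x, reached 20.3 ± 4.41 TPM, against 2498 ± 307 TPM for Rps4x. Rpl3l, which in mice belongs to heart and skeletal muscle, was at 0.346 ± 0.254 TPM, against 1718 ± 175 TPM for Rpl3. Rpl10l, a testis paralog, was at 0.0831 ± 0.0432 TPM, against 4277 ± 420 TPM for Rpl10. Rpl39l, a paralog of male germ cells, was at 0.385 ± 0.486 TPM, against 1745 ± 248 TPM for Rpl39. Rpl32l was at 0.840 ± 0.308 TPM and Rpl6l at 0.260 ± 0.158 TPM. The 5 members below 1 TPM were all large subunit paralogs.

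Rps27l, a p53 target in human cells, was the paralog with a substantial level. Rps27 averaged 931 ± 111 CPM in liver, 1214 ± 153 CPM in pancreas and 907 ± 96.5 CPM in duodenum (SD, n = 4 each). Rps27l had 93.4, 105, 124 and 119 CPM in liver, 118, 136, 180 and 123 CPM in pancreas, and 125, 95.4, 128 and 135 CPM in duodenum. Its libraries overlapped in every pair of tissues, and its adjusted p was 0.753 for liver against duodenum, 0.567 for pancreas against duodenum and 0.555 for liver against pancreas by edgeR's quasi-likelihood test. The coding sequences of the paralogs are given from the GENCODE annotation of GRCm38, with capitals at the differing bases. Rps27 lies at chr3:90212728-90213615 on the minus strand and Rps27l at chr9:66946175-66949354 on the plus strand.
Rps27: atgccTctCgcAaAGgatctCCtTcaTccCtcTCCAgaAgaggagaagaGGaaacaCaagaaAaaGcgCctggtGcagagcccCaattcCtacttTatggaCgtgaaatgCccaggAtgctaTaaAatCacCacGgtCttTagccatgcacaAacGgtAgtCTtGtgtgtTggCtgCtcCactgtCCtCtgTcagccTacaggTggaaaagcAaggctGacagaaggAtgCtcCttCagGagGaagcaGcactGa
Rps27l: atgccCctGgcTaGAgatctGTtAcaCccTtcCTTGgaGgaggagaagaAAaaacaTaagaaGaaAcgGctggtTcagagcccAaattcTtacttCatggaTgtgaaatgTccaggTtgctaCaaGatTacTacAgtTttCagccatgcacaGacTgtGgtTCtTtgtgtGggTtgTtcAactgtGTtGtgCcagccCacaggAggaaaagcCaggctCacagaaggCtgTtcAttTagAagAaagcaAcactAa
They differ at 61 of 255 bases and share 76.1% of them. Of the annotated coding sequences of Rps27l, this one was taken because it has the length of that of Rps27. Rpl39 and Rpl39l are closer, with 23 differences in 156 bases (85.3% shared), and their levels differed far more.

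The members are hard to count apart from copies of themselves. Of the 80 members found in the GENCODE annotation, 32 had every 31-base stretch of their coding sequence in at least 1 other gene, and the median member shared 96.6% of its stretches. Genes that held at least 25% of a member's stretches are called look-alikes here, and 74 members had some. The look-alikes together reached a higher TPM than the member itself for Rpl5, Rpl12, Rpl27a, Rpl35, Rps12, Rps23 and Rpl10l. The whole coding sequence of Rpl5, 894 bases, lies in the transcript of Gm15500, a predicted gene with a mean of 1105 TPM. That of Rpl12, 498 bases, lies in Gm10275 with 1452 TPM, and that of Rpl41, 78 bases, lies in Gm10076 with 1795 TPM. Rpl41, the smallest ribosomal protein, is shown whole (chr10:128548390-128548960, minus strand, GRCm38), with the first 90 coding bases of Rpl5 (coding region at chr5:107900644-107907993, plus strand, GRCm38). Both sequences also lie in the annotated transcript of the predicted gene named with them.
Rpl41: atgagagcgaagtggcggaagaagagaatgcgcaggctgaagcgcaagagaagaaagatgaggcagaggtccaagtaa
Rpl5: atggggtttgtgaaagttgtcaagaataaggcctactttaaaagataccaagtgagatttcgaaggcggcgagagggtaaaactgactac

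Summed over all members, ribosomal protein transcripts made up 15.9% to 21.0% of the libraries. They took 17.1%, 16.5%, 18.6% and 17.9% of TPM in liver 1 to 4. The pancreas libraries had 17.5%, 18.7%, 19.6% and 21.0%. The duodenum libraries had 16.6%, 17.9%, 15.9% and 16.7%. The mean was 17.5 ± 0.904% in liver, 19.2 ± 1.47% in pancreas and 16.8 ± 0.856% in duodenum (SD, n = 4 each). The tissues overlapped, the highest library was pancreas 4 and the lowest was duodenum 3. The large subunit sum was 1.15 to 1.20 times that of the small subunit in the 12 libraries, with means of 1.18 in liver, 1.16 in pancreas and 1.18 in duodenum. On the scale of counts, which weighs long transcripts more, the members took 8.88 ± 0.555% in liver, 9.66 ± 0.685% in pancreas and 8.36 ± 0.557% in duodenum.

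**Figure D2:**
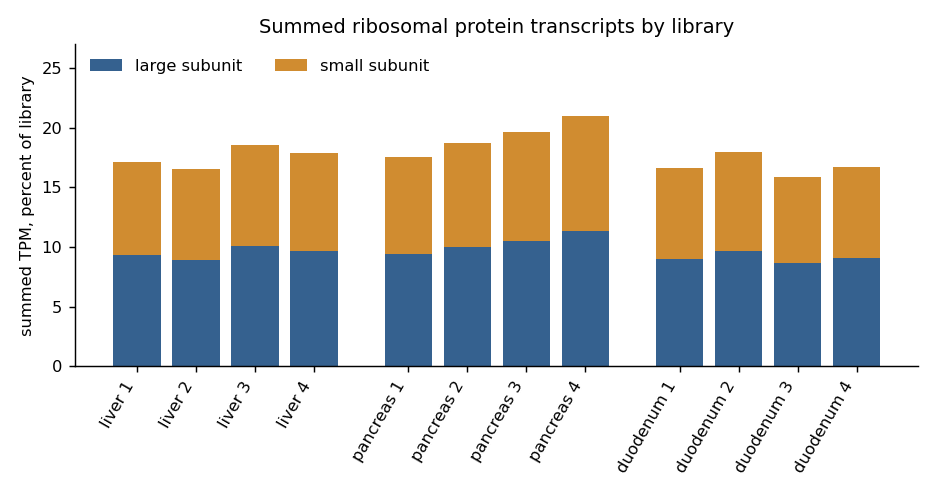
Summed TPM of the large and small subunit genes in each library, as a percent of the library, for liver, pancreas and duodenum. The bars end between 15.9% and 21.0%, and the large subunit part is 1.15 to 1.20 times the small subunit part throughout.

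In liver against duodenum, 1 of 83 members changed. Rpl5, which joins the large subunit in a complex with Rpl11 and can bind Mdm2, was higher in liver. The background was 7.32% of 44624 genes called at an adjusted p under 0.05, and 3.37% of them were called higher in liver, so the share of the members, 1.20%, was below both. Before adjustment 9 members had a p under 0.05 (10.8%), against a background of 19.1%. The median log2 difference was -0.08 over the large subunit, -0.11 over the small subunit and -0.09 over all members, against 0.10 over all genes tested, and 20 of 83 members were above 0. Among genes of at least 100 TPM the order was the other way, with a median of -0.09 over the 75 members and -0.31 over the 900 other genes. The sign of the members' median depended on the scaling: with library totals alone the median was 0.06, with 54 members above 0 and an all-gene median of 0.25, and with limma on TPM it was 0.07.

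Rpl5 had 99.1, 93.7, 104 and 86.1 CPM in liver, against 65.1, 53.6, 69.4 and 70.8 CPM in duodenum. Every liver library was above every duodenum library, and the pancreas libraries, at 58.4, 74.98, 85.7 and 91.0 CPM, lay across both. The log2 difference was 0.57 ± 0.15 (SE), a ratio of 1.48 with a 95% interval from 1.19 to 1.84, and edgeR's adjusted p was 0.0318. The call was lost when any 1 of 8 libraries was left out (liver 1, 2 or 3, any of the 4 duodenum libraries, or pancreas 3), with adjusted p from 0.0146 to 0.0957 over the 12 libraries left out in turn. Gm15500, which holds the same coding sequence, had 945, 792, 1005 and 953 CPM in liver, against 933, 781, 1073 and 1045 CPM in duodenum. These ranges overlap, and its log2 difference was -0.05 ± 0.12 with an adjusted p of 0.893. When the counts of all its look-alikes were added, Rpl5 averaged 1021 ± 94.9 CPM (SD, n = 4) in liver, against 1024 ± 140 CPM in duodenum, with an adjusted p of 0.995. Rpl5 was called in 15 of 28 alternatives, with adjusted p from 0.00026 to 0.995. It was not called by DESeq2 (adjusted p = 0.0746), with DESeq2's size factors (0.124) or without the count filter (0.0564), and each of these called Rpl41 in its place.

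Rpl41 had the next lowest p and missed the threshold. It had 1125, 1215, 1479 and 1213 CPM in liver, against 1707, 2098, 1492 and 1625 CPM in duodenum. The groups did not overlap, although liver 3 and duodenum 3 were close. The log2 difference was -0.46 ± 0.13 (SE) with an adjusted p of 0.0512, and 12 of 28 alternatives called it. Gm10076, its look-alike, was lower in liver too: 294, 284, 369 and 309 CPM, against 420, 530, 377 and 424 CPM in duodenum, with an adjusted p of 0.0365. With all look-alike counts added to Rpl41 the log2 difference was -0.46 ± 0.13 and the adjusted p was 0.0467, within a range from 0.00756 to 0.1502 over the alternatives.

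Rpl14, a large subunit protein, was also among the 4 members of lowest p in this comparison. It had 1078, 1053, 1214 and 1113 CPM in liver, against 1339, 1292, 1291 and 1391 CPM in duodenum. Every liver library of Rpl14 was below every duodenum library, yet its adjusted p was 0.186. Libraries without overlap and lower in liver were found for 4 members (4.82%), against a background of 5.9% of genes, and higher in liver for 1 member (1.20%), against 7.6%. Duodenum 2 had the lowest summed member level of the duodenum libraries (83647 CPM), so leaving it out raises the duodenum side. It was left out with pancreas 1 after seeing the data. Without duodenum 2 and pancreas 1 the fit called 10 members, of which 9 were lower in liver, among them Rpl14, Rpl15, Rpl29, Rpl31, Rpl41, Rps2 and Rps25. That is 12.05% of the members, against 11.03% of all genes called in the same fit.

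**Figure D3:**
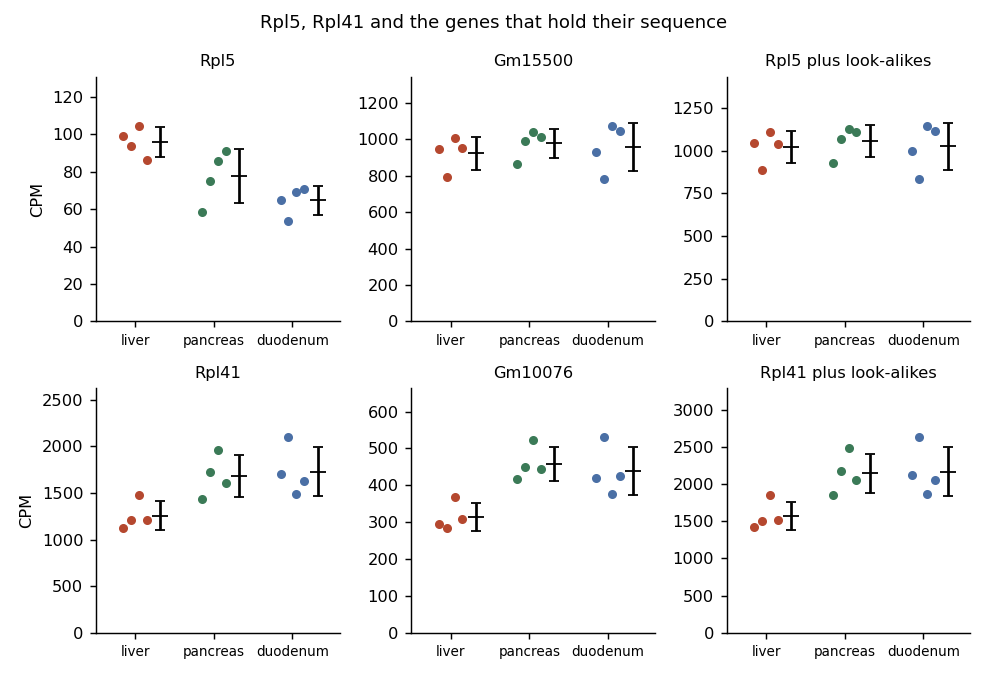
CPM of Rpl5 and Rpl41 (left), of the predicted gene that holds the coding sequence of each (middle) and of the member with all its look-alikes added (right), as 4 libraries a tissue with the mean and SD beside them. Rpl5 is higher in liver than in duodenum while its sum with look-alikes is not, and Rpl41 is lower in liver with and without them.

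In pancreas against duodenum, 0 of 83 members changed by edgeR's test, against a background of 7.7% of genes called in either direction and 3.76% called higher. Before adjustment 8 members had a p under 0.05 (9.64%), against 19% of all genes, and DESeq2 called 1 member, Rpl3l. The median log2 difference was 0.13 over the large subunit, 0.11 over the small subunit and 0.12 over all members, against 0.09 over all genes, with 63 members above 0. Among genes of at least 100 TPM it was 0.13 over the members and -0.24 over the others. The median of all members was -0.04 without liver 2, pancreas 3 and pancreas 4, the libraries of their tissues with the most plasma cell RNA (853, 1169 and 1210 CPM). Within their tissues, liver 2 also had the lowest summed member level (77085 CPM), and pancreas 3 and pancreas 4 had the highest (108199 and 103768 CPM). The count depended on the scale: library totals called 22 members (26.5%), against 9.29% of all genes, and limma on TPM called 18 with a pseudocount of 1 (21.7%, against 8.75%) or 22 with 0.1 (26.5%, against 9.08%). All of these members were higher in pancreas.

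Rps27 came closest. It had 1027, 1193, 1399 and 1235 CPM in pancreas, against 1030, 816, 846 and 936 CPM in duodenum. Pancreas 1 lay just below duodenum 1, and the other 3 pancreas libraries lay above all duodenum libraries. The log2 difference was 0.42 ± 0.12 (SE) with an adjusted p of 0.0530, and 7 of 28 alternatives called it. Rps19, which is mutated in human Diamond-Blackfan anaemia, had 1810, 2112, 2383 and 2034 CPM in pancreas, against 1829, 1498, 1606 and 1667 CPM in duodenum, with a log2 difference of 0.34 ± 0.11 and an adjusted p of 0.0957. In both genes pancreas 1 was the low pancreas library and lay within the duodenum range. Rpl3l had 0.163, 0.118, 0.0376 and 0.246 CPM in pancreas, against 0.799, 0.485, 0.212 and 0.308 CPM in duodenum, levels near the limit of detection. No member had libraries without overlap in this comparison, against a background of 7.12% of genes higher and 5.36% lower in pancreas.

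In liver against pancreas, 0 of 83 members changed, against a background of 1.11% of genes, 0.426% higher and 0.681% lower in liver. Before adjustment 19 members had a p under 0.05 (22.9%), against 9.01% of all genes, and DESeq2 called 1 member, Rps28. The median log2 difference was -0.19 over the large subunit, -0.21 over the small subunit and -0.20 over all members, against 0.01 over all genes, and 5 members were above 0. Among genes of at least 100 TPM it was -0.20 over the members and -0.08 over the others. Liver 2 had the lowest summed member level of the liver libraries, and pancreas 3 and pancreas 4 had the highest of the pancreas libraries. Without these libraries the median of all members was 0.02 with 47 members above 0. Pancreas 1 had the lowest summed member level of the pancreas libraries (79557 CPM), so leaving it out lowers the median. Duodenum 2 and pancreas 1 were chosen to be left out after seeing the data. Without them the median of all members was -0.29, and 6 members were called, all lower in liver: Rpl37a, Rpl38, Rpl41, Rps18, Rps28 and Rps29. That is 7.23% of the members, against 1.46% of all genes called in the same fit.

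Rps28, a small protein of the small subunit, had the lowest p. It had 834, 888, 1072 and 837 CPM in liver, against 1104, 1267, 1457 and 1289 CPM in pancreas. The groups did not overlap, and liver 3 was close to pancreas 1. The log2 difference was -0.49 ± 0.12 (SE) with an adjusted p of 0.0801. Rpl41, at 1432, 1730, 1960 and 1611 CPM in pancreas, had a log2 difference of -0.42 ± 0.13 in liver against pancreas and an adjusted p of 0.227. The difference of Rps27 was -0.38 ± 0.12 with an adjusted p of 0.239. Rpl36a had 385, 376, 490 and 397 CPM in liver, against 435, 522, 572 and 549 CPM in pancreas, with an adjusted p of 0.311. Libraries without overlap and lower in liver were found for Rps28 and for Rpl3, 2 members (2.41%), against 3.47% of all genes, and higher in liver for 0 members, against 3.11%.

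**Figure D4:**
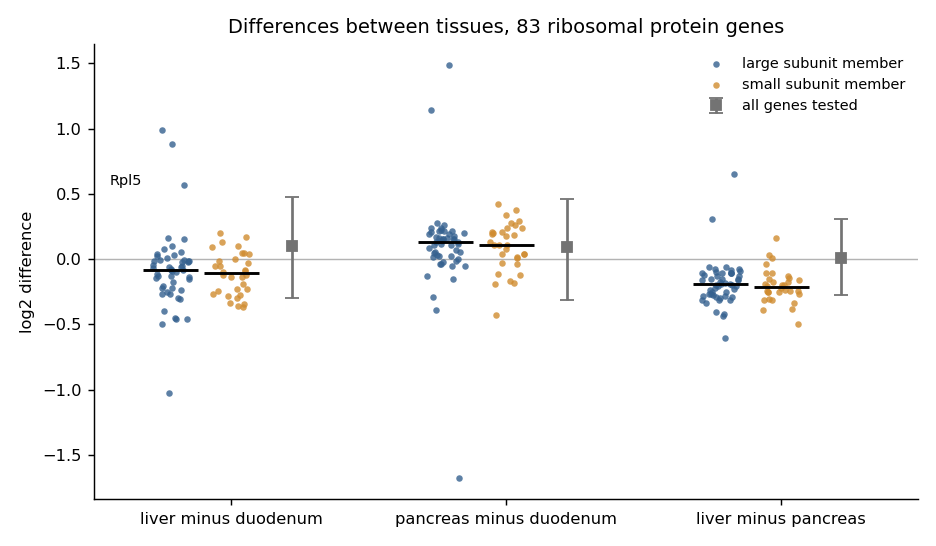
Log2 difference of each of the 83 members in 3 comparisons, large and small subunit apart, with black lines at their medians and grey squares at the median of all genes tested (bars from the lower to the upper quartile). Members lie closer to each other than all genes do, with a median of -0.09, 0.12 and -0.20 in the order drawn.

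The intervals of these differences left out a change of 2-fold or more for the abundant members. For the 75 members of at least 100 TPM, the 95% interval of the log2 difference lay within a 2-fold change in either direction in all 3 comparisons. The same held for 80.4% of the 900 other genes of at least 100 TPM in liver against duodenum, 81.4% in pancreas against duodenum and 91.0% in liver against pancreas. Such a share depends on the size of the differences as well as on the width of the intervals. The median SE was 0.124 over the 75 members and 0.146 over the others in each comparison. The fitted differences of those members were lowest for Rps28 in liver against pancreas, at -0.49, and highest for Rps27 in pancreas against duodenum, at 0.42. Plasma cell genes were high in duodenum and acinar genes in pancreas. When the genes of other cells were left out of the scaling, the number of members called stayed at 1, 0 and 0. This changes only the scaling. Any ribosomal protein RNA from such cells stays in the counts, and its part was not tested.

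The genes of the ribosomal stalk and of Rpsa stayed close to the rest. Rplp0, the base of the stalk, had 2920, 2771, 3209 and 2775 CPM in liver, 2829, 3219, 3733 and 3209 CPM in pancreas, and 3067, 2053, 3189 and 3077 CPM in duodenum. Only duodenum 2 stood apart, below all other libraries. Rplp1, an acidic stalk protein that recruits elongation factors, ran from 1016 to 1362 CPM in liver, from 1079 to 1750 CPM in pancreas and from 1097 to 1536 CPM in duodenum, where duodenum 2 was the highest. Rplp2, its partner, ran from 617 to 838 CPM in liver, from 642 to 991 CPM in pancreas and from 730 to 1131 CPM in duodenum, with duodenum 2 the highest again. Rpsa, also known as the laminin receptor, averaged 1340 ± 98.7 CPM in liver, 1584 ± 221 CPM in pancreas and 1471 ± 100.6 CPM in duodenum (SD, n = 4 each). Adjusted p-values of these 4 genes ran from 0.386 to 0.981 over the 3 comparisons.

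The spread of the members was compared with that of other abundant genes, as a description. The median SD of log2 CPM within a tissue was 0.175 over the 75 members and 0.206 over the 900 others, and the median coefficient of variation over 12 libraries was 13.2% against 20.6%. Rps6, the phosphorylation target of S6 kinase, varied least with 8.78%, followed by Rpl27a with 9.58% and Rpl6 with 10.2%. Rpl37a varied most with 26.0%, followed by Rps21 with 25.5% and Rpl38, which in mice is needed for the translation of Hox genes, with 24.9%. The 3 most variable genes were all highest in duodenum 2. Rpl37a had 1394 CPM there, against 721 to 818 CPM in the other duodenum libraries. Rps21 had 562 CPM there, against 307 to 388 CPM in the others, and Rpl38 had 672 CPM, against 366 to 441 CPM. The members also moved together: the median Pearson r of log2 CPM over the 12 libraries was 0.71 among their 2775 pairs, and the first principal component held 64.1% of their variance. These libraries are shared by all members, so the correlation is a description.

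Coding length and spread went together among the members. Spearman's rho between coding length and the coefficient of variation was -0.67 over the 75 members. Between coding length and the log2 difference it was 0.71 in liver against pancreas, 0.49 in liver against duodenum and 0.03 in pancreas against duodenum. The 9 members with at most 300 coding bases were Rpl37, Rpl37a, Rpl38, Rpl39, Rpl41, Rps21, Rps27, Rps28 and Rps29. Their median log2 difference was -0.39 in liver against pancreas, and that of the 66 longer ones was -0.20. Rps27l was counted with the longer ones by an annotated coding sequence of 318 bases, although the one printed above has 255. As a share of all ribosomal protein counts, the 9 short members took 8.05% to 8.70% in liver and 9.34% to 9.83% in pancreas, without overlap. In duodenum they took 9.13%, 11.98%, 8.27% and 8.94%, and the highest value was that of duodenum 2. Without duodenum 2, rho was 0.22 in liver against duodenum and -0.38 in pancreas against duodenum. Without liver 2, pancreas 3 and pancreas 4, rho in liver against pancreas was 0.36. By the transcript length that the deposited files imply, rho in liver against pancreas was 0.63 over the members and 0.19 over 864 other genes of at least 100 TPM.

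**Figure D5:**
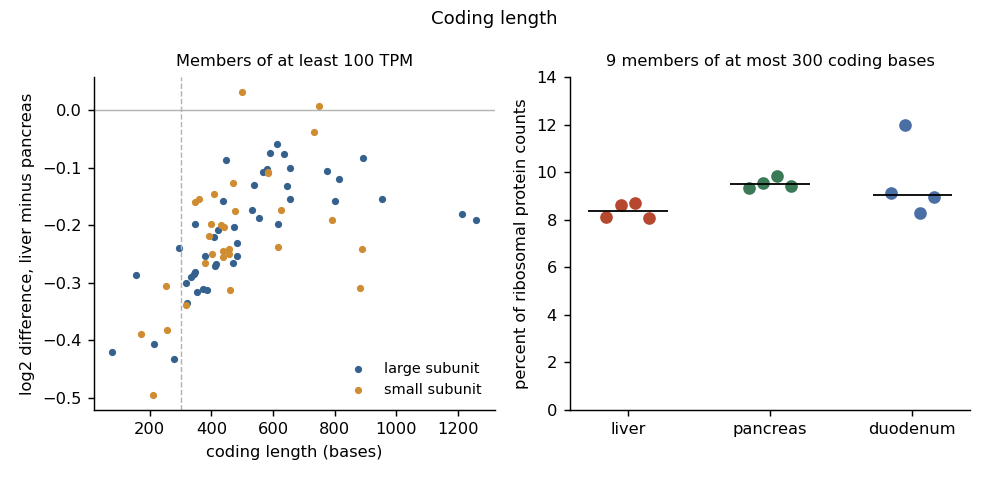
Coding length of the 75 members of at least 100 TPM against their log2 difference in liver against pancreas (left, dashed line at 300 bases), and the share of ribosomal protein counts taken by the 9 shortest members in each library (right, lines at the medians). Shorter members have the more negative differences, and duodenum 2 lies apart at 11.98%.

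Genes that make, feed and control ribosomes were counted in the same fit, in lists written from general knowledge. Among 7 other ribosome genes, the abundant Rack1, Fau and Rps3a1 had adjusted p-values of 0.422 or more in each comparison. Rpl22l1, a paralog of Rpl22, averaged 109 ± 11.9 CPM in liver, 117 ± 7.34 CPM in pancreas and 176 ± 12.6 CPM in duodenum (SD, n = 4 each), with an adjusted p of 0.00166 for liver and 0.00454 for pancreas against duodenum. Rpl36al fell by 0.58 in liver and by 0.49 in pancreas against duodenum on the log2 scale. Rpl7l1 fell by 0.63 in pancreas against duodenum, and its difference in liver, -0.37, missed the threshold.

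Of 62 ribosome biogenesis genes, 14 were lower and 0 higher in liver against duodenum, 15 were lower and 0 higher in pancreas against duodenum, and 0 were called in liver against pancreas. The background was 3.95% of genes lower in liver and 3.94% lower in pancreas against duodenum. The 2 comparisons share the duodenum libraries. The list's median was -0.33 in liver and -0.37 in pancreas against duodenum, and it was below 0 in all 28 alternatives of each. Tcof1, which promotes the transcription of ribosomal RNA genes, averaged 21.3 ± 3.28 CPM in liver, 28.8 ± 4.86 CPM in pancreas and 60.8 ± 9.53 CPM in duodenum, with log2 differences of -1.51 ± 0.17 and -1.08 ± 0.17 (SE) against duodenum. Nop56, a core protein of the box C/D snoRNA particles, fell by 0.73 in liver against duodenum, and Utp4, of the small subunit processome, fell by 1.06. Mdn1, an ATPase that matures the large subunit, fell by 0.95 in pancreas against duodenum, and Rcl1 fell by 1.14. The number lower depended on the libraries, from 9 to 29 over the alternatives in liver and from 5 to 28 in pancreas. It was highest when duodenum 2 was left out, alone or with pancreas 1. Calls grew over all 44624 genes too: without duodenum 2, 3297 were lower in liver and 3058 in pancreas, against 1763 and 1757 with all libraries. The backgrounds given for this list and the lists below are of the fit with all libraries. The summed plasma cell level was highest in duodenum as well, and its part in these counts was not tested.

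Of 41 translation factors, 9 were lower in liver and 8 were lower in pancreas against duodenum, and 0 were higher. In liver against pancreas 0 were called. The background was 3.95% of genes lower in liver and 3.94% lower in pancreas against duodenum. Eif4a1, the helicase of the cap-binding complex, averaged 485 ± 63.7 CPM in liver, 519 ± 65.5 CPM in pancreas and 766 ± 122 CPM in duodenum. Eif2s2 fell by 0.85 and Eif1 by 0.61 in liver against duodenum. In pancreas against duodenum, Eif2s1 fell by 0.71, Etf1, a release factor, by 0.64, and Eif5a by 0.59. The list had 4 to 30 lower genes in liver and 1 to 17 in pancreas over the alternatives, and its median was below 0 in each of them. The number lower over all 44624 genes moved as well, to 3297 in liver and 3058 in pancreas without duodenum 2.

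Of 16 RNA polymerase I genes tested, Polr1a, its largest subunit, rose by 1.15 in liver against duodenum on the log2 scale, and Polr2l fell by 0.94 and Polr1e by 0.74. Taf1d fell by 0.40 in pancreas against duodenum. Over the alternatives, 1 gene of this list was higher and 0 to 8 were lower in liver against duodenum. In pancreas against duodenum 0 to 2 were higher and 0 to 4 lower. The background was 3.37% of genes higher and 3.95% lower in liver, and 3.76% higher and 3.94% lower in pancreas, against duodenum. Of 42 genes of amino acid and mTOR control, 2 were higher and 5 lower in liver against duodenum. In pancreas against duodenum 3 were higher and 6 lower. The alternatives gave 0 to 4 higher and 2 to 11 lower in liver, and 2 to 8 higher and 2 to 9 lower in pancreas. Slc3a2, which with Slc7a5 forms an amino acid transporter, fell by 1.01 in liver and by 0.63 in pancreas. Slc7a5 fell by 1.00 in liver. Ddit4, an inhibitor of mTOR, rose by 2.57 ± 0.67 and Rragd, a Rag GTPase, by 2.01 ± 0.31 in pancreas against duodenum. Eif4ebp1, which blocks cap-dependent translation until mTOR phosphorylates it, fell by 0.69 in liver against pancreas.

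Of 24 genes of Myc and of the p53 response to ribosomal stress, 4 were higher and 0 lower in liver against duodenum. In pancreas against duodenum 3 were higher and 1 lower. The background was 3.37% of genes higher and 3.95% lower in liver, and 3.76% higher and 3.94% lower in pancreas, against duodenum. The alternatives gave 3 to 8 higher and 0 to 2 lower in liver, and 1 to 7 higher and 0 to 2 lower in pancreas. Cdkn1a, the cell cycle inhibitor induced by p53, rose by 1.52 ± 0.19 in liver and by 0.99 ± 0.19 in pancreas. Bbc3, a pro-apoptotic p53 target, rose by 1.27 in liver and 1.40 in pancreas. Mxd1, a Myc antagonist, rose by 1.02 in liver and 0.94 in pancreas, and Mdm2, the ligase of p53, fell by 0.81 in pancreas. Mycl, the Myc family member of type 1 dendritic cells, rose by 0.90 in liver against pancreas. Of 14 host genes of snoRNAs, many of which carry TOP motifs, 1 was higher and 4 lower in liver against duodenum. In pancreas against duodenum 1 was higher and 1 lower. The alternatives gave 1 to 3 higher and 2 to 5 lower in liver, and 1 higher and 1 to 3 lower in pancreas. Snhg20 rose by 1.96 in liver and 1.71 in pancreas, and Snhg6 fell by 0.96 in liver and by 0.79 in pancreas. Snhg15 fell by 1.01 and Snhg1 by 0.58 in liver against duodenum.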

How the data were processed

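Per the submitters' processing notes, reads were quantified with kallisto, with no version given, for the genome build GRCm39, and neither the transcript index nor the step from transcripts to genes is stated. The tables the authors deposited were 1 of estimated counts and 1 of TPM, each with 55401 genes in 12 libraries. The counts were rounded for edgeR 4.0.16 (R 4.3.3): filterByExpr with a minimum count of 10 (44624 genes, all 83 members among them), TMM scaling and 1 robust legacy quasi-likelihood fit over all 12 libraries without a block. The threshold was an adjusted p of 0.05 by the method of Benjamini and Hochberg over all genes tested. A standard error is the absolute log2 difference over the square root of F. CPM values were scaled with TMM factors. Alternatives used DESeq2 1.42.0 and limma 3.58.1. No pair of libraries of 1 tissue agreed within sampling noise.

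Look-alikes were found with 31-base stretches of GENCODE vM21 coding sequences on GRCm38. Since the files follow GRCm39, all coordinates printed belong to the GRCm38 references. Sequences matched the files by symbol or gene ID. Whether counting used strand is not stated. Estimated counts cannot be split between identical copies with certainty, so values of single members are uncertain.

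The family, gene lists and tests were chosen with earlier results of these data known; the members follow from symbols alone. Named members were the 4 of lowest p per comparison, fixed paralog pairs, stalk genes and Rpsa, and those of extreme level or variation (at least 10 TPM); context genes were up to 3 called genes per list, comparison and direction with the lowest p. Libraries are separate pools of mice, and the labels do not say that equal replicate numbers share animals. The fits were tested on simulated counts. Values of some members that meet the rule for named members are not reported here.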

Additional observations from a re-analysis of the deposited data

Results flagged for a closer look

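Among 108 groups of 4 libraries screened, 9 held a library far from the other 3. Chance flags about 5% of independent groups. That rate does not carry over here, since members moved together and some were named for their variation in these data. Duodenum 2 was the odd library for Rpl3 (1491 CPM, below the rest), Rpl6 (1206 CPM, below), Rplp0 (2053 CPM, below) and Rpl37a (1394 CPM, above). Liver 3 was above the other liver libraries for Rpl37a (797 CPM), Rpl6 (1642 CPM) and Rps27 (1095 CPM). Rpl39l stood out in liver 4 (0.639 CPM) and Rps4l in pancreas 3 (22.8 CPM).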

How the results depend on the processing

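For each comparison 28 alternatives were run, of which 4 were chosen after seeing the data (look-alike counts, the newer quasi-likelihood fit and 2 sets of libraries left out). In liver against duodenum, where 1 member was called, library totals called 10, a mean CPM of at least 1 called 2, limma on log2(TPM + 1) called 10, limma on log2(TPM + 0.1) called 11, and the newer fit called 2, where 9.33%, 26.2%, 9.17%, 9.42% and 8.59% of all genes were called. In pancreas against duodenum, where 0 members were called, these gave 22, 6, 18, 22 and 1, and DESeq2 gave 1, where 9.29%, 26.5%, 8.75%, 9.08%, 8.66% and 9.23% of all genes were called. In liver against pancreas, where 0 were called, a mean CPM of at least 1 gave 2, DESeq2 gave 1, and limma gave 1 and 3, against 5.42%, 2.12%, 1.59% and 1.61% of all genes. Leaving out 1 library at a time gave 0 to 5, 0 to 3 and 0 to 1 members. The 5 came without duodenum 2 (6.02% of members, against 10.88% of all genes) and the 3 without pancreas 1 (3.61%, against 6.01%). The 1 in liver against pancreas came without duodenum 2 (1.20%, against 1.69%). Without duodenum 2 and pancreas 1 the counts were 10 and 6 for liver against duodenum and against pancreas, where 11.03% and 1.46% of all genes were called. Without liver 2, pancreas 3 and pancreas 4 they were 0 in liver and 1 in pancreas against duodenum. Of all genes, 4.73% and 4.00% were called there.

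The median difference of the members turned sign with library totals (0.063) and limma (0.067 and 0.067) in liver against duodenum, and without liver 2, pancreas 3 and pancreas 4 in pancreas against duodenum (-0.044) and liver against pancreas (0.019). Library totals moved the median of all genes by 0.14 in liver against duodenum; relative to all genes, the members' median was -0.18 there, -0.19 with TMM, -0.13 with limma on log2(TPM + 0.1) and 0.016 with limma on log2(TPM + 1). The difference of Rpl5 in liver against duodenum became -0.0025 with look-alike counts. The cause was not tested.

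Counts of all genes were 5019 with DESeq2, 4921 without duodenum 2 and pancreas 1, and 2111 without liver 2, pancreas 3 and pancreas 4 in liver against duodenum, against 3265. They were 1785 without those 3 libraries in pancreas against duodenum, against 3437. In liver against pancreas they were 820 with library totals, 946 with a mean CPM of at least 1, 1145 with DESeq2 and 189 without those 3 libraries, against 494. With 1 library left out at a time they ran from 2362 to 4854, from 2627 to 4752 and from 346 to 756.

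The summed share of the members was 8.88% of counts in liver, 9.66% in pancreas and 8.36% in duodenum, or 9.78%, 10.7% and 9.13% without the most abundant feature. Of TPM it was 18.5% in liver and 17.7% in duodenum with named pseudogenes, and 19.6% in liver, 21.4% in pancreas and 18.7% in duodenum with look-alikes.

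Correlations of same-numbered libraries ran from -0.149 to 0.230, and 3, 2 and 3 of 8 libraries correlated best with their own number. Whether equal replicate numbers mark shared animals was not tested. With the replicate block, 1, 0 and 0 members and 2931, 3125 and 436 genes were called.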
